A study of Mus musculus with 16 samples.

Results

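The genes described here encode the subunits of the oxidative phosphorylation machinery, 80 from nuclear chromosomes and 9 from the mitochondrial genome. They were chosen by symbol among the protein-coding genes of the GENCODE M21 annotation: Nduf (without the Ndufaf assembly factors), Uqcr, Cox4 to Cox8, Atp5, mt-Nd, mt-Co, mt-Atp and mt-Cyt. The rule found 89 of the 35328 genes of the count table. It uses no expression value, but it was set with earlier results of these data known. By complex, assigned here from the symbol alone, the nuclear genes were 38 of complex I, 8 of complex III, 17 of complex IV and 17 of complex V. A further 6 annotated genes that the rule names (Cox8c, a second gene under the symbol Atp5o, mt-Atp6, mt-Atp8, mt-Co3 and mt-Nd4l) were not analysed here.

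Bulk RNA-Seq was performed on the dorsal hippocampus of male C57Bl6/J mice in 4 groups of 4. Mice drank plain water (control) or caffeine at 0.3 g/L in drinking water for 2 weeks, starting at 8 to 9 weeks of age. In each treatment, some mice stayed in their home cage (groups HC_water and HC_Caffeine) and others were trained for 3 days in the Morris water maze, a spatial memory task, with tissue taken 1 hour after the last trial (MWM_water and MWM_Caffeine, here called learning). No group carries a transgene or deletion, and the comparisons ask how these genes respond to caffeine at rest, to learning, and to learning under caffeine. Trained mice were also habituated to the pool, whereas home cage mice rested. No group swam without training, so learning cannot be told apart from swimming and handling. Counts per library ran from 23078094 to 49949281, and levels are given as CPM, the count divided by the size of the library after TMM scaling. Markers of neurons (5 of 5) and of excitatory hippocampal neurons (5 of 5) were counted in every library, and thalamus markers summed to 51.5 to 87.6 CPM.

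Complexes I, III and IV of the respiratory chain pass electrons to oxygen and pump protons across the inner mitochondrial membrane, and complex V, the ATP synthase, uses the proton gradient to make ATP. The mitochondrial genome encodes core subunits of these complexes, and nuclear genes encode all the other subunits, so both genomes must be expressed to build them. Neurons depend on this pathway for most of their ATP. In bulk tissue, fewer cells of a type and less RNA per cell cannot be told apart.

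Several mitochondrial genes have near-identical copies in the nuclear genome, which bears on every value given for them, since the authors kept only reads that aligned to 1 place. Of the 50-base stretches of the mt-Co2 transcript, 0% occur in no transcript of another locus, and the aligned 681 bases were 100% identical to Gm28661, an unprocessed pseudogene on chromosome 1. For mt-Nd3 the share was 2.01%, with 1 difference over 345 aligned bases from Gm28438 on the same chromosome. The first 90 bases are shown for both genes to let the copies be compared. They are written 5′ to 3′ with capitals where the copies differ (T3C, counted from the first base shown, mitochondrial base first). Positions are GRCm38 (mm10): chrM:7013-7102 and chrM:9459-9548 on the plus strand, chr1:24615476-24615565 and chr1:24613030-24613119 on the minus strand.
mt-Co2: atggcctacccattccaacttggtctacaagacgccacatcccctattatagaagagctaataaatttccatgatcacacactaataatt
Gm28661: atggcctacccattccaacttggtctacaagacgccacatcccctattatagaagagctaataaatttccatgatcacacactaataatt
mt-Nd3: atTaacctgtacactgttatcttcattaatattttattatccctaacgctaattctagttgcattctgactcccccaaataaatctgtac
Gm28438: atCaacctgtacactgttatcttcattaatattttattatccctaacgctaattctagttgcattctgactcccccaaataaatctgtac
The mt-Co2 row held a mean of 0.188 counts and the mt-Nd3 row 0.25, and these 2 genes did not pass the count filter. Their levels therefore say nothing about the expression of either gene. Among the other 7, the share in no transcript of another locus was 37.8% for mt-Nd4 and 48.9% for mt-Co1. It was from 91.8% to 100% for mt-Nd1, mt-Nd2, mt-Nd5, mt-Nd6 and mt-Cytb. Only exact matches to annotated transcripts were searched, so unannotated copies in the genome were not covered. In all, 87 genes (80 nuclear, 7 mitochondrial) of the 17830 that passed the filter were tested.

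Apart from these 2 and mt-Nd6, mitochondrially encoded transcripts were more abundant per length than nuclear ones of the same complex. Per exon length (in TPM, which scales each library to the same total), mt-Cytb, the core subunit of complex III, was at 28712 ± 1883 (SD, n = 16). The complex I core subunit mt-Nd1 was at 28391 ± 2182 TPM and the catalytic complex IV subunit mt-Co1 at 25928 ± 1674 TPM. mt-Cytb and mt-Nd1 did not differ beyond the spread between libraries, and mt-Co1 lay more than 1 SD below them. Below them came mt-Nd2 at 15069 ± 994 TPM, mt-Nd4 at 11046 ± 725 TPM and mt-Nd5 at 8616 ± 552 TPM, all core subunits of complex I. The lowest was mt-Nd6, another core subunit of complex I, at 699 ± 83.1 TPM. Its gene (chrM:13552-14070) overlaps only the end of mt-Nd5 (chrM:11742-13565) on the opposite strand. Whether strand was used in counting is not given in the sources used here. Libraries were made from polyadenylated RNA, and how well that selection captures mt-Nd6 or any other mitochondrial transcript was not tested. mt-Nd6 was above the highest nuclear gene of complex I with summed exon length and below it with the length of the longest transcript (543 TPM, against 572 TPM for Ndufb9). The order depends on the unshared sequence. Per 1000 stretches in no transcript of another locus, mt-Co1 was highest at 13278 ± 1072 CPM. On that scale mt-Nd4 at 7348 ± 606 CPM was level with mt-Cytb at 7269 ± 597 CPM and mt-Nd1 at 7252 ± 674 CPM.

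With summed exon length, nuclear genes spanned 2.54 to 1488 TPM. Under the complex I symbols the highest were Ndufa4 (509 ± 45 TPM), whose product is found with complex IV, and the accessory subunit Ndufb9 (503 ± 45.5 TPM). These did not differ beyond the spread. The lowest was Ndufa4l2 (7.85 ± 1.67 TPM), the paralog of Ndufa4. With the longest transcript Ndufb9 was at 572 ± 53.1 TPM and Ndufa4 at 444 ± 40.1 TPM. In complex III the range ran from Uqcrb (94.5 ± 7.37 TPM) to Uqcr10 (563 ± 63.5 TPM), both small accessory subunits. Of the Uqcrb stretches, 80.8% occur in no transcript of another locus. Complex V ran from Atp5g2 (2.54 ± 0.531 TPM) to Atp5b (1205 ± 34.5 TPM), the catalytic beta subunit. Atp5a1, the alpha subunit, was at 1203 ± 44.1 TPM, within the spread of Atp5b, but with the longest transcript Atp5b was at 2071 ± 59.7 TPM and Atp5a1 at 1097 ± 39.6 TPM. The lowest gene also changed with that length, from Atp5g2 to Atp5l, subunit g (2.70 ± 0.365 TPM). The Atp5l transcript used is 6310 bases long, and 469 of its 6261 stretches also occur at other loci. Its row held a mean of 193 counts, and the part of shared sequence or length in this low value was not tested.

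In complex IV, isoforms known from muscle, lung or testis were low beside their widely expressed partners. Cox8a was at 1488 ± 137 TPM, against 4.62 ± 2.43 TPM for the muscle isoform Cox8b. Cox6a1 was at 1420 ± 122 TPM, and its muscle isoform Cox6a2 at 13.97 ± 3.16 TPM. Cox4i1 reached 1176 ± 87.7 TPM and Cox4i2, the lung isoform, 4.71 ± 1.45 TPM. The same held for Cox6b1 (935 ± 83.3 TPM) and the testis isoform Cox6b2 (7.76 ± 1.54 TPM), for Cox7a2 (413 ± 31 TPM) and the muscle isoform Cox7a1 (7.74 ± 2.498 TPM), and for Cox7b (308 ± 24.7 TPM) and Cox7b2 (3.19 ± 0.872 TPM). The 3 genes for ATP synthase subunit c, which encode the same mature protein, were also far apart, with Atp5g3 at 374 ± 29.4 TPM, Atp5g1 at 13.5 ± 1.77 TPM and Atp5g2 at 2.54 ± 0.531 TPM. Some of these genes share sequence with processed pseudogenes, and 88.4% of Atp5g1 and 88.9% of Atp5g2 stretches occur in no transcript of another locus. For Atp5g1 that share is over a transcript of 4715 bases, and 335 of its 542 shared stretches match the processed pseudogene Gm10039. Reads from shared stretches may not be counted, so the levels of these genes may be too low.

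**Figure D1:**
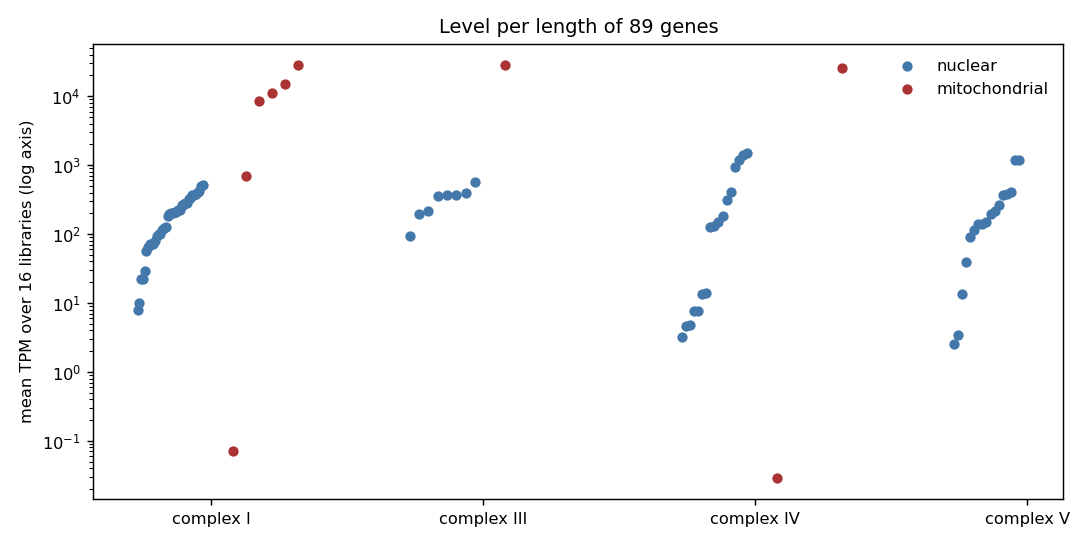
Mean level per exon length (TPM, log axis) of the 89 genes over 16 libraries by complex, 1 point per gene, nuclear in blue and mitochondrial in red. Red points sit above all blue ones of their complex except for mt-Co2 and mt-Nd3 at the bottom, whose sequences are shared with nuclear copies; mt-Nd6, at 699 TPM, is the lowest of the others and falls below Ndufb9 with the longest transcript length.

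Summed over genes, both sets were higher in the home cage on average and overlapped between conditions. The 80 nuclear genes summed to 9624, 8080, 8456 and 9363 CPM in HC_water replicates 6, 8, 11 and 20, and to 9172, 8757, 8410 and 9735 CPM in HC_Caffeine replicates 2, 9, 14 and 17. After learning they summed to 8511, 8397, 8588 and 7966 CPM in MWM_water replicates 24, 33, 36 and 38, and to 8336, 8796, 8142 and 8132 CPM in MWM_Caffeine replicates 22, 27, 30 and 40. HC_water replicates 6 and 20 and HC_Caffeine replicates 2 and 17 lay above all learning libraries, whereas the other home cage libraries lay among them.

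The mitochondrial genes summed to 37010 ± 1685 CPM in HC_water, 37548 ± 4246 in HC_Caffeine, 33734 ± 686 in MWM_water and 34201 ± 1535 in MWM_Caffeine (SD, n = 4). HC_Caffeine replicate 17 was highest for both sets, with 43271 mitochondrial CPM. The ratio of the mitochondrial to the nuclear sum was 4.18 ± 0.160 in HC_water, 4.15 ± 0.219 in HC_Caffeine, 4.03 ± 0.103 in MWM_water and 4.095 ± 0.0958 in MWM_Caffeine. These differences between groups were smaller than the spread within HC_water and HC_Caffeine.

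**Figure D2:**
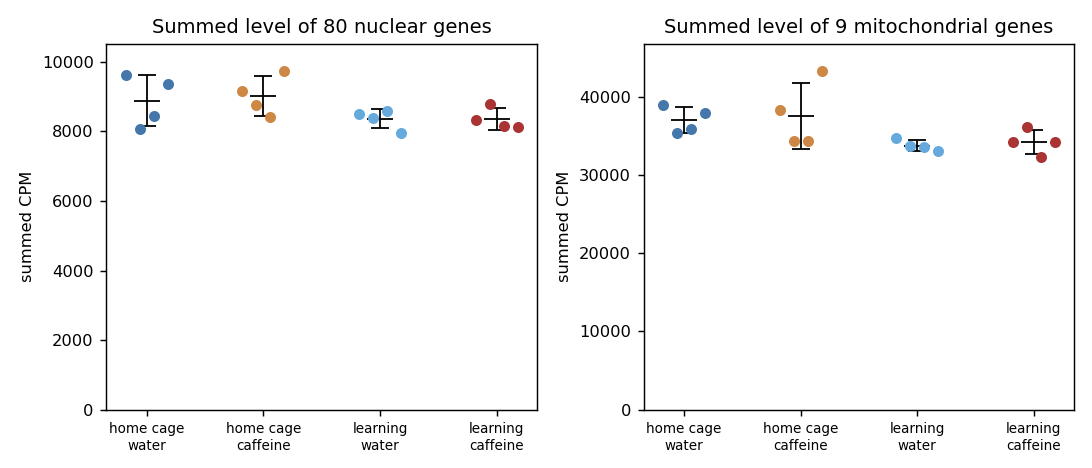
Summed CPM of the 80 nuclear (left) and 9 mitochondrial (right) genes in each library by group, with the mean and SD (n = 4) in black. Home cage means are above learning means in both panels, with overlapping libraries, and HC_Caffeine replicate 17 is the highest point in each.

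No gene of either set was called for caffeine. In the home cage, 0 of 87 genes were called for caffeine against water (adjusted p under 0.1, edgeR's quasi-likelihood test with Benjamini-Hochberg adjustment), beside 0% of all tested genes. DESeq2 also called 0 of the 87. At an unadjusted p under 0.05 there were 2 members, Ndufb2, a complex I accessory subunit (log2 fold change 0.12 ± 0.05 SE), and Cox8b (−0.85 ± 0.36), beside 3.57% of all genes. Choroid plexus markers lay on the same side as Cox8b in this comparison, with 8 of 8 below 0, a median of −1.40 and 0 called by edgeR, and their part was not tested. The median log2 fold change was 0.05 over the nuclear and 0.02 over the mitochondrial genes, against 0.00 over all tested genes, with 61 of 80 nuclear and 6 of 7 mitochondrial values above 0. In complex III the smallest p belonged to Uqcrh (log2 fold change 0.11 ± 0.08 SE) and in complex V to Atp5g2 (−0.36 ± 0.21 SE), both with an adjusted p of 0.997 by edgeR's quasi-likelihood test.

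After learning, 0 of 87 genes were called for caffeine against water by edgeR's quasi-likelihood test, beside 0% of all genes. DESeq2 called 0 members, and 0 members were under an unadjusted p of 0.05. The nuclear median was 0.00 and the mitochondrial 0.02 on the log2 scale. Averaged over both conditions, edgeR called 0 members, beside 0% of all genes, and so did DESeq2. There, 1 member was under an unadjusted p of 0.05, Cox4i2 (log2 fold change 0.43 ± 0.20 SE). The smallest p in each other complex belonged to Ndufb2 (log2 fold change 0.07 ± 0.04 SE), Uqcrc2, a core subunit of complex III (−0.06 ± 0.04 SE), and Atp5k (0.18 ± 0.11 SE). The difference between the learning responses under caffeine and water was called for 0 members by edgeR, beside 0% of all genes, and 0 by DESeq2, with 0 members under an unadjusted p of 0.05. Its median was −0.05 over the nuclear and 0.00 over the mitochondrial genes.

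Genes of both sets were called for learning, nearly all of them lower. Averaged over both treatments, edgeR's quasi-likelihood test called 24 nuclear and 3 mitochondrial genes lower and 1 nuclear gene, Atp5g1, higher, beside 6.71% of all tested genes called lower and 7.81% called higher. Of the 80 nuclear genes 73 had a log2 fold change below 0, with a median of −0.13, and all 7 mitochondrial genes were below 0, with the same median of −0.13. The median over all tested genes was −0.01, with 54% below 0. Unadjusted p-values under 0.05 were found for 58 members, beside 25.5% of all genes, and DESeq2 called 34 members. The share of all genes that DESeq2 called is not given here. By symbol, the called nuclear genes were 12 of 38 in complex I, 3 of 8 in complex III and 3 of 17 in complex IV. In complex V they were 6 lower and 1 higher of 17. Home cage and learning libraries overlapped for every one of the 89 genes.

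The calls changed when single libraries were left out and with a length and GC correction. The 28 calls became 8 without HC_water replicate 6, 9 without HC_Caffeine replicate 17, MWM_water replicate 38 or MWM_Caffeine replicate 30, and 10 without HC_water replicate 20, MWM_water replicate 33 or MWM_Caffeine replicate 40. They became 12 without HC_water replicate 11, 13 without HC_Caffeine replicate 2, 16 without MWM_Caffeine replicate 22 and 18 without HC_Caffeine replicate 9. Without HC_water replicate 8 or HC_Caffeine replicate 14 there were 42. The nuclear median stayed between −0.15 and −0.09, and so did the mitochondrial one. With each library corrected for its trend with exon length and GC content, 4 members were called lower and 1 higher, the nuclear median was −0.035 and the mitochondrial −0.06. The shares of all genes called in these refits are not given here, so the counts of members cannot be set against them.

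**Figure D3:**
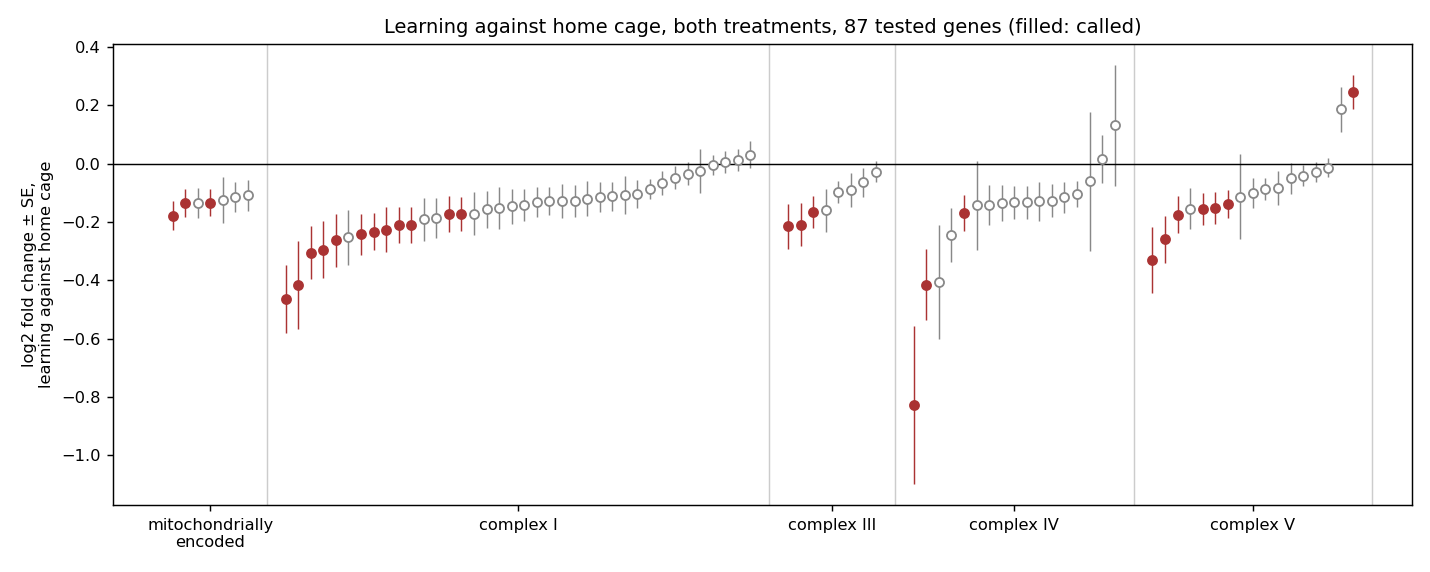
Log2 fold change (± SE) of the 87 tested genes for learning against home cage averaged over both treatments, 1 point per gene, ordered within the mitochondrial set and each nuclear complex, with called genes filled in red. Most points lie below 0; Atp5g1 at 0.25 is the only called gene above 0, and with a length and GC correction 5 of the 28 calls held.

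The length trend concerned all genes. OXPHOS genes are short: the nuclear members had a median exon length of 1522.5 bases against 3980.5 for all tested genes, at a median GC content of 50.3% against 49.5%. In the shortest of 5 classes of equal size (60 to 2061 bases), which held 54 of the 80, the median log2 fold change after learning was −0.11 over all genes and −0.15 over the members. In that class 37% of members (20 of 54) were called lower, beside 11.2% of all its genes. In the next class (2062 to 3299 bases) it was 23.1% of members (3 of 13) and 8.09% of all genes, with medians of −0.13 and −0.05. In the longest class, with 1 member, the median over all genes was 0.06. The part of length in the members' response was not tested beyond the length and GC correction. That correction takes its trend from the genes of the same libraries, so it also removes any learning difference that short genes share.

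Other measures moved with learning as well, and their part in these results was not tested. Learning libraries held 30861776 to 49949281 counts and home cage libraries 23078094 to 41841785. Of the marker lists of cell types, 0 of 5 neuron, 0 of 5 inhibitory neuron, 0 of 6 oligodendrocyte, 0 of 4 thalamus and 0 of 4 red cell markers were called lower after learning (edgeR). Markers called lower were 7 of 8 for choroid plexus, 3 of 6 for microglia, 1 of 6 for astrocytes, 1 of 5 for endothelial cells and 1 of 5 for excitatory hippocampal neurons, and no marker was called higher.

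**Figure D4:**
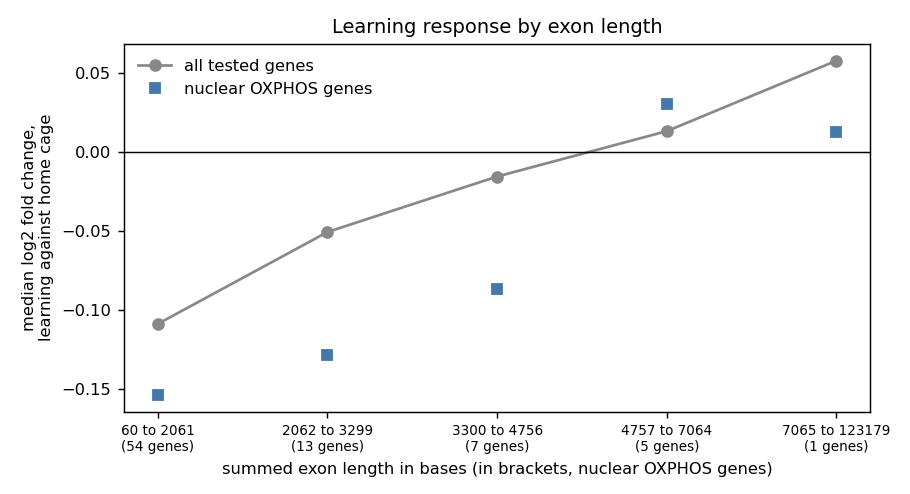
Median log2 fold change for learning against home cage (both treatments) in 5 classes of exon length in bases, for all tested genes (grey line) and the nuclear OXPHOS genes (blue squares, number in brackets). The grey line goes from −0.11 in the shortest to 0.06 in the longest class. The members lie below it in the 3 shortest classes and in the longest, which holds 1 member. In the class of 4757 to 7064 bases they lie above it, at 0.03 against 0.01.

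Among the mitochondrial genes, mt-Nd1 (ENSMUSG00000064341, chrM:2751-3707 on the plus strand, mm10) had the strongest call. Its level was 6362 CPM at the lowest, 6893 at the median and 8219 at the highest in the 8 home cage libraries, and 5927, 6191 and 6375 CPM after learning. Only the lowest home cage library (HC_Caffeine replicate 9) lay within the learning range, and mt-Nd1 fell by 0.18 ± 0.05 SE on the log2 scale (edgeR's quasi-likelihood test, adjusted p = 0.035). mt-Nd2 went from a median of 3865 CPM to 3618 CPM (log2 fold change −0.14 ± 0.05 SE, adjusted p = 0.0837, edgeR) and mt-Nd5 from 3998 to 3641 CPM (−0.13 ± 0.05 SE, adjusted p = 0.0809, edgeR). The other 4 were not called, at log2 fold changes of −0.14 for mt-Cytb, −0.13 for mt-Nd6, −0.12 for mt-Nd4 and −0.11 for mt-Co1. With the length and GC correction mt-Nd1 was at −0.09 (edgeR, adjusted p = 0.272), mt-Nd2 at −0.06 (0.444) and mt-Nd5 at −0.10 (0.25). These 3 calls did not hold.

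Under the complex I symbols, the largest called change was in Ndufa4l2 (ENSMUSG00000040280, chr10:127514967-127517154, plus strand). This paralog of Ndufa4, placed in complex I by symbol only, is known to be induced by hypoxia. It ranged from 1.75 CPM over a median of 2.51 to 3.05 CPM in the home cage and from 1.57 over 1.79 to 1.94 CPM after learning. HC_water replicate 8 and HC_Caffeine replicate 2 lay within the learning range and the other 6 home cage libraries above it. Ndufa4l2 fell by 0.47 ± 0.12 SE on the log2 scale (edgeR's quasi-likelihood test, adjusted p = 0.0226), and by 0.33 with the length and GC correction (edgeR, adjusted p = 0.0755). It remained called without any 1 library. It overlaps Shmt2 on the opposite strand.

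Ndufa13, an accessory subunit of the membrane arm also known as GRIM-19 (ENSMUSG00000036199, chr8:69894180-69902558, minus strand), went from 95.7, 123 and 145 CPM (lowest, median and highest home cage library) to 91.7, 101 and 110 CPM after learning. The upper home cage libraries were above all learning libraries, and the lower ones overlapped them. Ndufa13 fell by 0.24 ± 0.07 SE (edgeR, adjusted p = 0.0421), remained called without any 1 library, and was at −0.11 with the length and GC correction (edgeR, adjusted p = 0.0844). Its gene overlaps Tssk6 on the opposite strand. Ndufs6, a zinc-binding accessory subunit, went from 23.5, 28.0 and 33.8 CPM to 21.8, 24.1 and 25.9 CPM. It fell by 0.23 ± 0.06 SE (edgeR, adjusted p = 0.0328), a call that held without any 1 library but not with the correction (−0.11, edgeR, adjusted p = 0.14). Ndufs6 overlaps Mrpl36 on the opposite strand.

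The other 9 called nuclear genes placed in complex I by symbol were Ndufv3, Ndufa1, Ndufa11, Ndufa3, Ndufb11, Ndufa5, Ndufc1, Ndufa4 and Ndufs5. Their log2 fold changes ran from −0.42 (Ndufs5) to −0.17 (Ndufb11). Ndufv3, which sits by the NADH-binding site, is the one of these called with the correction (−0.19, edgeR, adjusted p = 0.0408). Ndufa1, a small subunit of the membrane arm, went from 29.0, 41.8 and 51.1 CPM to 28.4, 32.3 and 38.3 CPM and held without any 1 library (log2 fold change −0.31 ± 0.09 SE, edgeR, adjusted p = 0.0449). Ndufa3, also of the membrane arm, was at 57.6 ± 9.32 CPM in the home cage and 46.9 ± 6.09 CPM after learning (SD, n = 8; −0.29 ± 0.10 SE, edgeR, adjusted p = 0.0679). Ndufs5 shares sequence with other loci, with 68.9% of its stretches in no transcript of another locus. Ndufa11, Ndufa3 and Ndufb11 overlap Vmac, Tfpt and Rbm10 on the opposite strand.

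In complex III, the called genes were the small subunits Uqcrh, Uqcr10 and Uqcrq. Uqcrh, the hinge protein that helps cytochrome c bind, was at 96.2, 119 and 138 CPM in the home cage (lowest, median, highest) and at 98.7, 105 and 112 CPM after learning. HC_water replicate 8 was the lowest of all 16 libraries, and the upper home cage libraries lay above the highest learning library. Uqcrh fell by 0.17 ± 0.06 SE (edgeR, adjusted p = 0.0721), Uqcr10 by 0.21 ± 0.07 SE (edgeR, adjusted p = 0.086) and Uqcrq by 0.22 ± 0.08 SE (edgeR, adjusted p = 0.0896). None of the 3 was called with the length and GC correction.

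In complex IV, the called genes were the ubiquitous Cox6b1 and the low-level isoforms Cox6b2 and Cox8b. Cox6b2 was at 1.84, 2.42 and 2.89 CPM in the home cage (lowest, median, highest) and at 1.498, 1.74 and 2.36 CPM after learning. MWM_water replicate 24 lay within the home cage range, as did MWM_Caffeine replicate 22, and the other 6 lay below it. Cox6b2 fell by 0.42 ± 0.12 SE (edgeR, adjusted p = 0.0452) and held without any 1 library. Cox6b1 went from 170 ± 18.6 to 151 ± 9.05 CPM (SD, n = 8; log2 fold change −0.17 ± 0.06 SE, edgeR, adjusted p = 0.0931). With the correction, neither was called.

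Cox8b had the largest change of all members on very low counts (ENSMUSG00000025488, chr7:140898945-140900446, minus strand). It was at 0.595, 0.701, 0.448 and 0.940 CPM in HC_water replicates 6, 8, 11 and 20, and at 0.242, 0.517, 0.255 and 0.530 CPM in HC_Caffeine replicates 2, 9, 14 and 17. After learning it was at 0.366, 0.337, 0.259 and 0.0977 CPM in MWM_water replicates 24, 33, 36 and 38 and at 0.453, 0.321, 0.221 and 0.191 CPM in MWM_Caffeine replicates 22, 27, 30 and 40. HC_water replicates 6, 8 and 20 were the highest of the 16 libraries, and HC_water replicate 11 and HC_Caffeine replicates 2 and 14 lay in the learning range. Cox8b fell by 0.83 ± 0.27 SE (edgeR, adjusted p = 0.0676), was called in 9 of 16 fits that left out 1 library, and was not called with the correction. Choroid plexus markers moved the same way: 8 of 8 were counted in every library, 7 of 8 were called lower after learning, and their summed level was 194 to 2340 CPM in home cage and 118 to 435 CPM in learning libraries. HC_water replicate 20 was the highest for both. Cardiac and skeletal muscle markers summed to 7.94 to 12.2 CPM in home cage and 6.25 to 8.41 CPM in learning libraries, with 1 of 3 tested called lower. The part of either tissue in the response of Cox8b or any other member was not tested.

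In complex V, Atp5g1 (ENSMUSG00000006057, chr11:96068852-96075670, minus strand) was called in the direction opposite to the other called genes. It was at 13.3, 16.5, 14.3 and 14.1 CPM in HC_water replicates 6, 8, 11 and 20, and at 14.1, 16.97, 14.7 and 13.4 CPM in HC_Caffeine replicates 2, 9, 14 and 17. After learning it was at 16.7, 17.4, 16.6 and 16.3 CPM in MWM_water replicates 24, 33, 36 and 38, and at 17.1, 16.6, 18.6 and 19.8 CPM in MWM_Caffeine replicates 22, 27, 30 and 40. HC_water replicate 8 and HC_Caffeine replicate 9 reached the learning range and the other 6 home cage libraries did not. Atp5g1 rose by 0.25 ± 0.06 SE (edgeR's quasi-likelihood test, adjusted p = 0.0186), without any 1 library as well, and by 0.23 with the length and GC correction (edgeR, adjusted p = 0.0138). Of the 17 complex V genes, 15 had an average log2 fold change below 0, and Atp5l, also above 0, was not called. Group means of Atp5l were 5.05 CPM in HC_water, 4.85 in HC_Caffeine, 5.28 in MWM_water and 6.03 in MWM_Caffeine. Counts of Atp5g1 may lack reads from its 542 stretches shared with other loci.

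Its partner for the same mature subunit c, Atp5g3, went the other way, from 178, 201 and 245 CPM (lowest, median, highest home cage library) to 175, 189 and 195 CPM after learning, with overlap in the lower home cage libraries (log2 fold change −0.15 ± 0.05 SE, edgeR, adjusted p = 0.0931). With the correction it was at −0.10 (edgeR, adjusted p = 0.206). The Atp5g3 call held in only 2 of 16 fits that left out 1 library. Atp5g2 was at 1.07 ± 0.287 CPM in the home cage and 0.989 ± 0.114 CPM after learning (SD, n = 8). The opposite changes of Atp5g1 and Atp5g3 were not tested against each other.

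Atp5e, the epsilon subunit of the central stalk, was at 48.9, 64.2 and 79.4 CPM in the home cage and 45.2, 54.4 and 60.5 CPM after learning. The upper home cage libraries lay above all learning libraries, and HC_water replicate 8 lay among the lowest. Atp5e fell by 0.26 ± 0.08 SE (edgeR, adjusted p = 0.0585) and by 0.19 with the correction (edgeR, adjusted p = 0.0983), and was called in 9 of 16 fits that left out 1 library. The other called genes were Atp5k and Atp5j2, small subunits of the membrane part, and Atp5o and Atp5j, of the peripheral stalk. They had log2 fold changes from −0.33 (Atp5k) to −0.14 (Atp5o), and none was called with the correction. Atp5j overlaps Gabpa on the opposite strand. Atp5o overlaps a second gene of the same symbol on its own strand, and D430001F17Rik and Gm15976 on the opposite one.

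**Figure D5:**
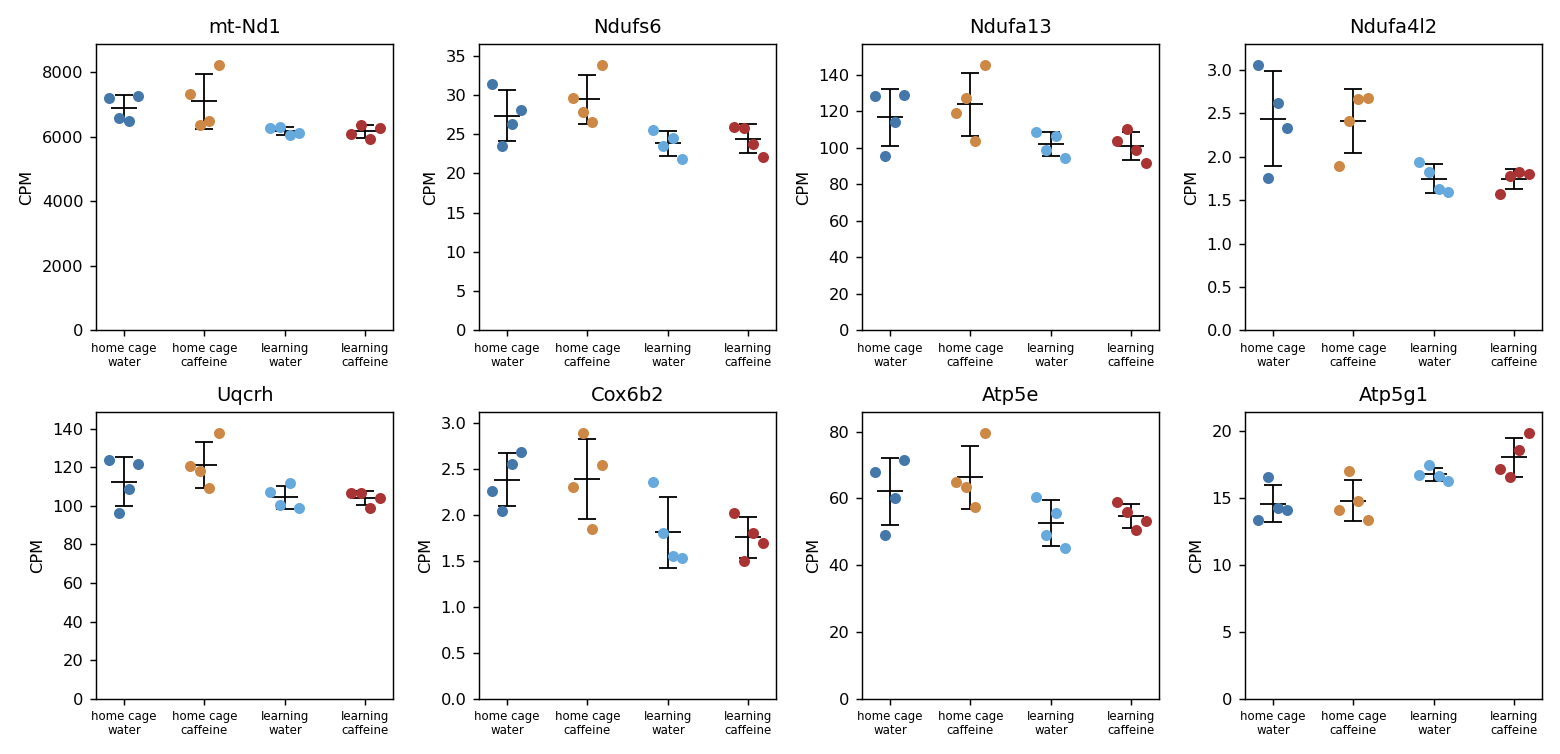
CPM per library by group for 8 called genes, with the mean and SD (n = 4) in black. In each panel home cage and learning libraries overlap; Atp5g1 is the one gene with higher learning means, mt-Nd1 has the narrowest learning groups relative to its level, and of the 8, Ndufa4l2, Ndufa13, Atp5e and Atp5g1 were also called with a length and GC correction.

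Within each treatment fewer members were called. Under water, edgeR's quasi-likelihood test called 0 of 87 members for learning against home cage, beside 0.331% of all genes lower and 0.639% higher, and DESeq2 called 0. At an unadjusted p under 0.05 there were 8 members, beside 11.8% of all genes. The nuclear median was −0.11, with 72 of 80 below 0, and the mitochondrial −0.13. Under caffeine, 2 members were called by edgeR, beside 2.13% of all genes lower and 3.16% higher. DESeq2 called 10 members, and its share of all genes is not given here. At an unadjusted p under 0.05 there were 36 members, beside 18.8% of all genes. The nuclear median was −0.16, with 71 of 80 below 0, and the mitochondrial −0.14. With the length and GC correction the medians under water were −0.036 (nuclear) and −0.07 (mitochondrial), and under caffeine −0.049 and −0.07. Oligodendrocyte markers went opposite ways in these comparisons, with 0 of 6 below 0 under water (median 0.21) and 6 of 6 under caffeine (median −0.41), and 0 were called in either by edgeR. MWM_water replicate 24 stood apart with a summed level of 11355 CPM, against 4709 to 8481 CPM in the other 15 libraries. Of the microglia markers, 3 of 6 were called lower under caffeine, and 3 of 8 choroid plexus markers under water. The part of these cells in the members' values was not tested.

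The 2 genes called under caffeine were Ndufa11 and Atp5g1. Ndufa11, an accessory subunit at the membrane arm, was at 64.7, 64.2, 58.4 and 78.2 CPM in HC_Caffeine replicates 2, 9, 14 and 17 and at 53.5, 57.7, 53.3 and 53.0 CPM in MWM_Caffeine replicates 22, 27, 30 and 40. Ndufa11 fell by 0.29 ± 0.09 SE (edgeR, adjusted p = 0.083). Under water its log2 fold change was −0.13 ± 0.09 SE (edgeR, adjusted p = 0.567), and the difference between the responses was not called (−0.15 ± 0.12 SE, edgeR, adjusted p = 1). Atp5g1 rose by 0.29 ± 0.08 SE under caffeine (edgeR, adjusted p = 0.074) and was at 0.20 ± 0.08 SE under water (edgeR, adjusted p = 0.35), with a difference of 0.09 ± 0.12 SE. With the correction, Atp5g1 was called under caffeine (0.27, edgeR, adjusted p = 0.0587) and Ndufa11 was not (−0.12, edgeR, adjusted p = 0.212). The 2 calls became 0 without HC_Caffeine replicate 2 or 17 or MWM_Caffeine replicate 30 or 40, and 1 without HC_water replicate 11 or MWM_water replicate 33 or 36. They became 6 without HC_water replicate 8 and 12 without HC_Caffeine replicate 14.

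Other genes of the pathway were counted in the contrast averaged over both treatments, in which 6.71% of all genes were called lower and 7.81% higher. In complex II, which is wholly nuclear and was not part of the symbol rule, 2 of 4 were called lower: the membrane anchor Sdhc fell by 0.20 ± 0.04 SE (edgeR, adjusted p = 0.0114) and the iron-sulfur subunit Sdhb by 0.13 ± 0.05 SE (edgeR, adjusted p = 0.0813). The catalytic subunit Sdha, at 430 CPM in both conditions, had a log2 fold change of 0.00 ± 0.03 SE and Sdhd one of −0.06 ± 0.03 SE. Of 47 assembly factors, 8 were called lower (17%) and 2 higher, with a median of −0.04. The lower ones of smallest p were Sdhaf1, a complex II factor (−0.30 ± 0.06 SE), and Ndufaf8 and Ndufaf3, complex I factors (−0.27 ± 0.08 and −0.20 ± 0.06 SE).

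Genes that maintain and express the mitochondrial genome had a median log2 fold change of 0.04, with 2 of 26 called lower, a share of 7.69%, close to that of all genes (Slirp, an RNA-binding protein, and Hsd17b10, a subunit of mitochondrial RNase P) and 1 higher (Twnk, the replicative helicase, 0.12 ± 0.04 SE). Of 10 nuclear regulators of respiratory genes, 2 were called higher. Pprc1, a coactivator of the PGC-1 family, rose by 0.26 ± 0.07 SE (edgeR, adjusted p = 0.0265) and Gabpa, an ETS factor that binds promoters of respiratory genes, by 0.16 ± 0.05 SE (edgeR, adjusted p = 0.0562). Gabpa overlaps Atp5j on the opposite strand. Of 5 electron carriers and other core subunits outside the rule and 8 carriers and channels, 0 were called by edgeR, and 2 of the 8 were under an unadjusted p of 0.05.

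Since 24 nuclear genes were called lower together, the promoters of the set were searched on both strands for 3 motifs known for respiratory genes. RefSeq promoter windows (GRCm38.p6, 250 bases before to 50 after the start site) were matched for 66 of the 80. The NRF1 motif GCGCATGCG was found in 12.1% of these (8 of 66) and in 1.75% of all 32817 promoters. The ETS-family motif CCGGAAG, bound by GABP, was in 19.7% (13 of 66) against 8.86%, and the YY1 motif AAGATGGC in 13.6% (9 of 66) against 2.74%. Any of the 3 was in 40.9% (9 of 22) of the genes called lower after learning and in 39.5% (17 of 43) of those not called. A match is a description of letters and not a bound site.

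The promoters of the called genes of smallest p in each complex, among those matched, are printed 5′ to 3′ on the gene's strand with motif letters in capitals. All 5 are on minus strands: Ndufs6 at chr13:73328433-73328732, Uqcrh at chr4:116075021-116075320, Cox6b2 at chr7:4753045-4753344, Atp5e at chr2:174464052-174464351 and Atp5g1 at chr11:96075582-96075881. Capitals mark a YY1 motif in Ndufs6 (33 to 40 bases after the start site) and an ETS-family motif, in reverse complement, in Uqcrh and Atp5e. In the windows of Cox6b2 and Atp5g1 the letters of the 3 motifs were not found, and no motifs overlapped in those printed.
Ndufs6: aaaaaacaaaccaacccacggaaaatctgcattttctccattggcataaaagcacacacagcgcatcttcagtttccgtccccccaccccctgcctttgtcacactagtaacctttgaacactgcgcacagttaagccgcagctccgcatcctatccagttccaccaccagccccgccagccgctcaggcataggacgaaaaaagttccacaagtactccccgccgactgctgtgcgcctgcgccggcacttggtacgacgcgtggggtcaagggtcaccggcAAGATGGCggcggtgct
Uqcrh: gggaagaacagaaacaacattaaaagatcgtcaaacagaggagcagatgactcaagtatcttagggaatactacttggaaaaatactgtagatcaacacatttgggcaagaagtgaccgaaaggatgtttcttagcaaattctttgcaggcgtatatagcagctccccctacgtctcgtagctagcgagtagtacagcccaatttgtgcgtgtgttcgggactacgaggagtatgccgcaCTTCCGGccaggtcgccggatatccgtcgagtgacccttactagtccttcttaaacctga
Cox6b2: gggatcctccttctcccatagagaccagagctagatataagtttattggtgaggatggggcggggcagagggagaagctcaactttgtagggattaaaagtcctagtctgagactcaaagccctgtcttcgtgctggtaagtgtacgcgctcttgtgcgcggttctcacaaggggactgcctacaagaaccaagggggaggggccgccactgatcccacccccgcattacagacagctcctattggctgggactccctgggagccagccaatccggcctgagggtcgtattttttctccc
Atp5e: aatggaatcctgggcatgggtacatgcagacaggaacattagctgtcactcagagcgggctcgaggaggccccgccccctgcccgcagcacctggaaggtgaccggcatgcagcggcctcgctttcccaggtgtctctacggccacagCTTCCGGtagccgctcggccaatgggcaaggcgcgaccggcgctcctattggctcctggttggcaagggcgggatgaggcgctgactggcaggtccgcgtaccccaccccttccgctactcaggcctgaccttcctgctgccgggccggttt
Atp5g1: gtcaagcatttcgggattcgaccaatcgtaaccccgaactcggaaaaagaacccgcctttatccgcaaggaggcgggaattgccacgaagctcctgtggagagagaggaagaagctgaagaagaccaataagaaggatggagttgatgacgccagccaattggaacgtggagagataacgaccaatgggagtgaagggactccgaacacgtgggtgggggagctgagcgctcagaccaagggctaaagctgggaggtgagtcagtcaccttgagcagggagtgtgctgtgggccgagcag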

How the data were processed

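Dorsal hippocampal RNA was measured in 16 libraries, 4 per group, made with a kit that selects polyadenylated RNA and keeps its strand. The authors mapped the reads to mm10 with STAR and Bowtie2, kept uniquely aligned reads and counted them per Ensembl gene with HTSeq. They deposited raw counts, with no normalization, pooling or molecular identifiers. Whether strand was used in counting is not given in the sources used here. Totals of 23078094 to 49949281 counts gave a median standard error of 0.10 (log2) per gene between 2 groups. No sample was dropped, and 0 columns of sample values were unused.

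Counts were fitted with edgeR 4.0.16 (R 4.3.3): TMM, filterByExpr, a mean per group over 16 libraries, quasi-likelihood test, Benjamini-Hochberg adjustment over 17830 genes, called at an adjusted p under 0.1. Standard errors were derived from the test statistic. TPM used summed exon length. Positions and exon lengths came from GENCODE M21, where 35247 of 35328 genes matched. Genes were named by a rule: all mitochondrial members, called nuclear members, those of smallest p, highest and lowest level per complex, isoform pairs and Ndufa3, named in the study for another assay. Other pathway genes were named where called, at most 3 a list, with all of complex II. Members, lists and tests were chosen with earlier results of these data known. The unique-stretch level was chosen after seeing the data. Alternatives were DESeq2 1.42.0 (size factors in edgeR, or its own Wald test), other count filters, an adjusted p under 0.05, robust estimation, fits of the compared groups only or without mitochondrial genes, a length and GC trend correction (17802 genes), other length measures and each library left out. The code was tested on simulated data. The 4 libraries of a group are biological replicates by the study's account, and p-values measure the spread between them.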

Additional observations from a re-analysis of the deposited data

Results flagged for a closer look

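In 140 groups of 4 libraries, 5 had 1 library far from the other 3 by Dixon's test. Chance flags about 1 in 20 groups. MWM_Caffeine replicate 27 was high for Atp5j2 at 72.9 CPM, with the others between 66.8 and 67.8 CPM, and for Ndufa11 at 57.7 CPM, with the others between 53.0 and 53.5 CPM. MWM_Caffeine replicate 22 was high for Ndufa1 at 38.3 CPM, with the others between 31.7 and 32.6 CPM. MWM_water replicate 24 was high for mt-Cytb at 8013 CPM, with the others between 7359 and 7463 CPM. HC_water replicate 8 was low for mt-Nd5 at 3903 CPM, with the others between 4094 and 4122 CPM.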

How the results depend on the processing

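The counts of called members for caffeine in either condition or averaged, for learning under water, and for the difference between learning responses were 0 under every alternative run, each library left out included. For learning averaged over both treatments, the 28 calls became 9 at an adjusted p under 0.05, 5 with the length and GC trend correction, and 8 to 42 with 1 library left out. The nuclear median of −0.13 became −0.035 with that correction. For learning under caffeine, the 2 calls became 10 by DESeq2's Wald test, 4 with at least 10 counts in every library, 1 with the length and GC correction, 0 at an adjusted p under 0.05, 0 in a fit of the compared groups only, and 0 to 12 with 1 library left out. The nuclear median of −0.16 became −0.049 with the correction. The shares of all genes called under these alternatives are not given here. No called result reversed its direction. The cause of these changes was not tested. Of the 28 genes called for learning on average, 7 (Atp5g1, Ndufa4l2, Ndufs6, Ndufa13, Ndufa1, Cox6b2 and mt-Nd1) were called whichever library was left out. Levels per length depend on the length used: with the longest transcript instead of summed exons, 63 of 87 levels moved by more than the spread between libraries, and the highest nuclear gene changed in complexes I and IV and the lowest in complex V. No paired analysis was possible because the groups share no replicate numbers. Depth limits Cox8b, Cox7b2, Cox4i2, Cox7a1 and Atp5g2, whose mean counts were under 40.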
